A study of Mus musculus with 6 samples.

Results

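The genes described here carry glucose into the cell, break it down to pyruvate, and either turn pyruvate into lactate for export or admit it to the mitochondrion. They are 32 genes chosen by symbol: 3 glucose transporters, 2 hexokinases, glucose-6-phosphate isomerase, 3 phosphofructokinases and 4 enzymes that set their activator, 2 aldolases, the enzymes of the later steps, 2 lactate dehydrogenase subunits, 2 lactate transporters, and 4 genes of the pyruvate dehydrogenase step. All 32 of 32 were found by symbol among the 49315 genes of the count table, and all 32 passed the filter on low counts that left 16688 genes for testing.

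RNA was taken from wild-type mouse tail-tip skin cells in 3 groups of 2 libraries. The fibroblast group had received negative lentiviral vectors and stands for day 0. The early group had received CRISPR activation (CRISPRa) vectors and stands for day 7, and its replicate 2 is described as partially reprogrammed. The late group had received CRISPRa vectors, was isolated as colonies, is labelled progenitors of the heart lineage and stands for day 22. CRISPRa guides a cleavage-dead Cas9 fused to activating proteins to chosen promoters, and the labels name its SAM form in the treatment field of all 6 libraries, fibroblasts included. No source used here names the targeted genes. No label ties a replicate to its own culture or animal, and each p-value therefore speaks only of the spread among these 6 libraries, which may be technical.

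Glycolysis is served at most steps by more than 1 isoenzyme. Proliferating and embryonic cells use mainly broadly expressed forms (Slc2a1, Pfkl, Pgam1, Eno1, Ldha). Heart and skeletal muscle carry their own forms (Slc2a4, Pfkm, Pgam2, Eno3), and the heart also has much of the lactate dehydrogenase subunit Ldhb. Many genes of the pathway are known targets of hypoxia-inducible factor (HIF), which binds a short core in their promoters, and muscle isoforms such as Pgam2 are known targets of MEF2 factors. Skin fibroblasts in culture rely strongly on glycolysis; the adult heart relies mainly on mitochondrial oxidation.

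The promoter sequences of 3 of these genes are shown because their RNA follows different courses: Ldha and Pdk1, which are in the hypoxia-responsive part of the pathway, and Pgam2, the muscle phosphoglycerate mutase. Each runs 5′ to 3′ on the strand of the gene, over the 250 bases before and 50 after a RefSeq transcription start, on GRCm38.p6, taking the window with the most matches where a gene has several. Ldha lies at chr7:46845554-46845853 on the + strand, Pdk1 at chr2:71872974-71873273 on the + strand and Pgam2 at chr11:5803747-5804046 on the - strand. Capitals mark the HIF core, ACGTG or GCGTG on either strand, in Ldha and Pdk1, and a match to the MEF2 motif in Pgam2.
Ldha: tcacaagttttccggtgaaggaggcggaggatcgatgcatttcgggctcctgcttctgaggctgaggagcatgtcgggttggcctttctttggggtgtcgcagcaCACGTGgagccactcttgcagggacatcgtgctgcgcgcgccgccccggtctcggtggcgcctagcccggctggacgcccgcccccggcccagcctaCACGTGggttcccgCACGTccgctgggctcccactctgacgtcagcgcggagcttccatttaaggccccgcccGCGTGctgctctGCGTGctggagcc
Pdk1: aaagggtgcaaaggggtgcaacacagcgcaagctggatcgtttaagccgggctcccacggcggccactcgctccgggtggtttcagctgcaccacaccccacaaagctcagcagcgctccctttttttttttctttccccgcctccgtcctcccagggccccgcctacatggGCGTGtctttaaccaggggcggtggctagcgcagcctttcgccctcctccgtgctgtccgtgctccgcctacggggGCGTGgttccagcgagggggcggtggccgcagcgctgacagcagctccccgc
Pgam2: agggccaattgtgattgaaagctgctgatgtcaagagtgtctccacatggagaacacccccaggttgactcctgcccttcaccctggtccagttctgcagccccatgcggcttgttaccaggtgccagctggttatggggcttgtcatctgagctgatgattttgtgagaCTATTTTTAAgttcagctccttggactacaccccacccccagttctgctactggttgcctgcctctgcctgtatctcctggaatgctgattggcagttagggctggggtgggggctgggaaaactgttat

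The Ldha window held 7 matches, of which those in each CACGTG overlap, and the Pdk1 window held 2. RefSeq gave windows for 30 of the 32 genes, 49 in all. The HIF core was present in 36 of these 49 windows, or 73.5%, against 43.8% of the 32851 windows of all genes. Counted by gene, 26 of the 30 had it in a window, against 46.7% of 27025 genes. The windows of all genes were not matched to these for base composition. CACGTG, the E-box bound by MYC and related factors, which contains the HIF core, was in 6 of the 49 windows (12.2%, against 7.15% of all windows). The MEF2 motif was in 2, those of Pgam2 and Pfkfb1 (4.08%, against 3.19%). These are matches of letters and say nothing about binding in these cells.

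Levels are given as CPM, the count of a gene relative to the total of its library, after TMM scaling, which adds a factor per library that aligns most genes between libraries. Total counts ranged from 20172874 to 40122999 per library, so that the floor of 3 counts lay between 0.0842 and 0.142 CPM. Late replicate 2 stood apart from the other libraries: 10.3% of its counts came from the mitochondrial genome, against 1.48% to 2.16% elsewhere. All 15 heart muscle markers on the list used here, such as Myh6, Actc1 and Tnnt2, were highest in it, with a summed level of 59815 CPM, against 96.7 CPM in late replicate 1, 24.5 and 59.0 CPM in early cells and 27.5 and 165 CPM in fibroblasts. Its red blood cell, fat cell and endothelial markers were also all the highest (7 of 7, 6 of 6 and 8 of 8), at 1045, 322 and 772 CPM summed. Of the skeletal muscle list, Myod1, Myog and Tnnc2 had no count in any library, and 6 of 15 were highest in late replicate 2, where the list summed to 1528 CPM, 1415 CPM of it Ckm, the muscle creatine kinase that heart cells also express. The part of these other cells in the levels below was not tested, and in RNA from a mixture fewer cells of a type cannot be told apart from less RNA per cell. Early replicate 1 had the highest level of all 10 markers of dividing cells. They summed to 148 and 124 CPM in fibroblasts, 2309 and 440 CPM in early cells and 1197 and 1138 CPM in late cells. Of the 10 fibroblast markers, 7 were below both fibroblast libraries in early replicate 1, among them Col3a1 at 17.0 CPM, Dcn at 3.21 CPM and Lum with no count. The remaining 3 lay between the fibroblast libraries there, with Col1a1 at 1910 CPM and Col1a2 at 766 CPM. In early replicate 2, by contrast, 9 of the 10 fibroblast markers had their highest level of all libraries. The list summed to 4294 and 6668 CPM in fibroblasts, 2933 and 13052 CPM in early cells and 2817 and 3434 CPM in late cells. Of the genes on the marker lists, edgeR called 1, the glutamate transporter Slc1a3 of the neuron and glia list, which was at 4.71 and 4.02 CPM in late cells, against 0.269 and 0.206 CPM in fibroblasts (log2 fold change 4.18 ± 0.59 SE, edgeR adjusted p of 0.0485), a call that was lost when either fibroblast library was left out.

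The 32 genes together took up a similar amount of RNA in both fibroblast libraries and differed widely between replicates afterwards. Their summed level was 11544 and 11335 CPM in fibroblasts, 16750 and 9126 CPM in early cells and 10035 and 19072 CPM in late cells. The highest sums were those of early replicate 1 and late replicate 2. Of the 32 genes, 16 had their highest level in late replicate 2 and 8 in early replicate 1. How many of all genes tested were highest in each library was not counted, so these counts have no background beside them. Of all genes tested, 7.86% were more than 2-fold above every other library in late replicate 2, against 0.755% to 2.19% in the other libraries. The within-group ratio exceeded 2-fold for 2 of 32 genes in fibroblasts, 12 of 32 in early cells and 15 of 32 in late cells, against 15.4%, 26.3% and 28.7% of all genes tested.

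**Figure D1:**
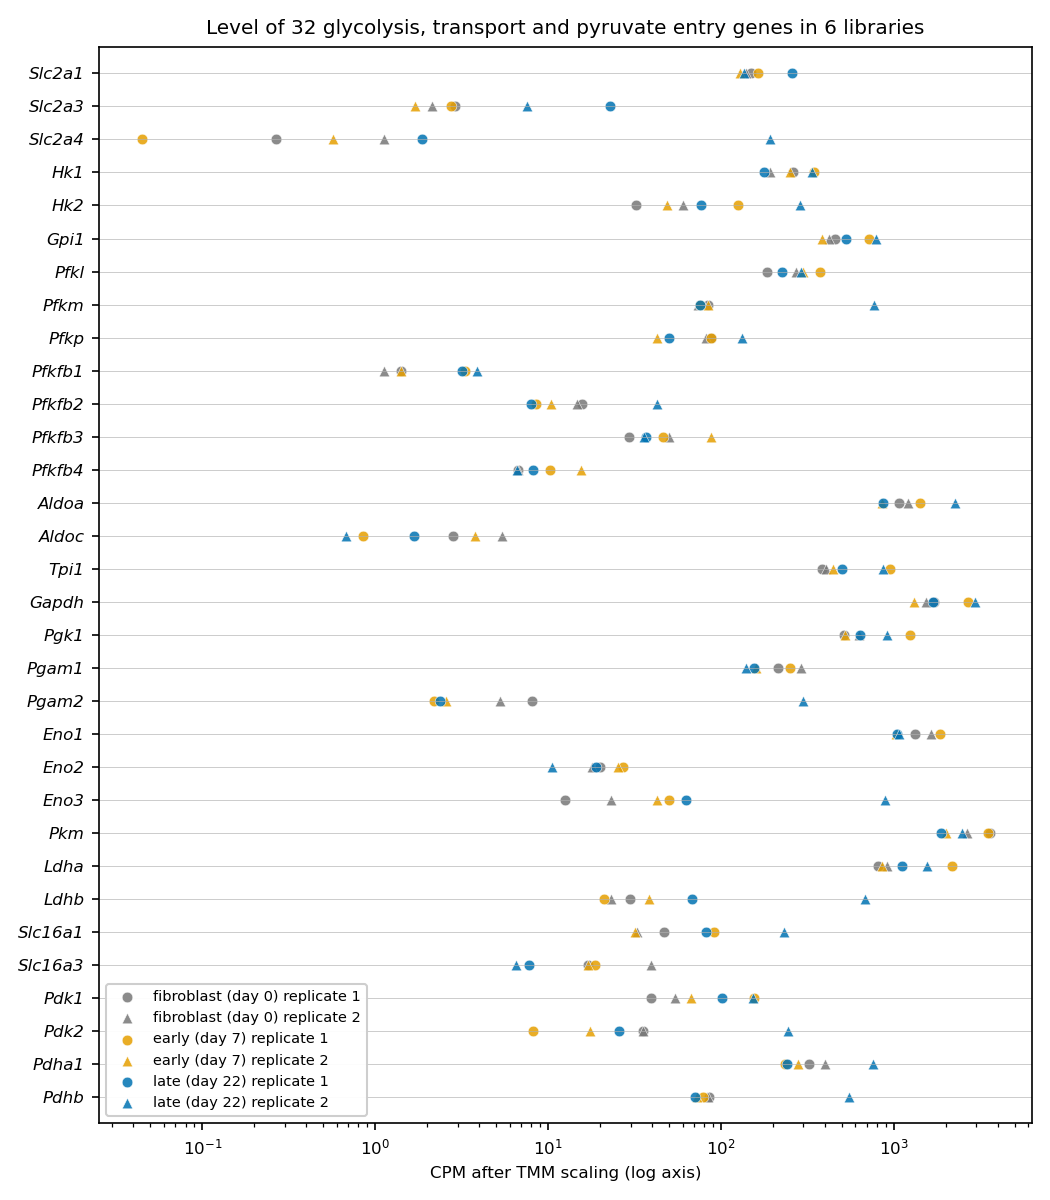
Level of each of the 32 genes in CPM after TMM scaling (log axis), 1 point per library, circles for replicate 1 and triangles for replicate 2. Late replicate 2 stands far to the right for Slc2a4, Pfkm, Pgam2, Eno3, Ldhb, Pdk2 and Pdhb, while the points of the broadly expressed enzymes lie closer together.

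No gene of the 32 passed an adjusted p of 0.05 in any of the 3 comparisons by edgeR's quasi-likelihood test, fitted over all genes tested with Benjamini-Hochberg adjustment. In early over fibroblast cells the same test called 1.53% of all genes, 116 higher (0.695%) and 139 lower (0.833%). In late over fibroblast cells it called 1.42%, 107 higher (0.641%) and 130 lower (0.779%), a split that became 180 higher and 120 lower with library totals as the only scaling. In late over early cells it called 0%, and 1709 genes had an unadjusted p under 0.05. DESeq2's Wald test called more genes of all kinds. In early over fibroblast cells it called 0 of the 32 genes and 25.2% of all genes, in late over fibroblast cells 9 of the 32, or 28.1%, and 28.1% of all genes, and in late over early cells 6 of the 32, or 18.8%, and 5.57% of all genes. At an unadjusted p under 0.05, edgeR had 1 of the 32 higher and 0 lower in early over fibroblast cells (15.3% and 14.5% of all genes), 6 higher and 2 lower in late over fibroblast cells (17.2% and 15.3%), and 6 higher and 1 lower in late over early cells (7.42% and 2.82%).

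The shares of genes whose groups did not overlap were near or below those of all genes. In early cells 7 of 32 genes (21.9%) lay above both fibroblast libraries, where 32.3% of all genes did, and 5 (15.6%) lay below, where 34.4% did. In late cells 12 (37.5%) lay above both fibroblast libraries and 5 (15.6%) below, against 35.7% and 32.9% of all genes. Set against early cells, 5 (15.6%) lay above and 6 (18.8%) below in late cells, against 16.1% and 17.6%. The median log2 fold change of the 32 genes was 0.09 in early over fibroblast cells, 0.55 in late over fibroblast cells and 0.34 in late over early cells, where that of all genes tested was 0.00, 0.11 and -0.03. The first became -0.17 without early replicate 1, and the other two became -0.02 and -0.25 without late replicate 2.

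**Figure D2:**
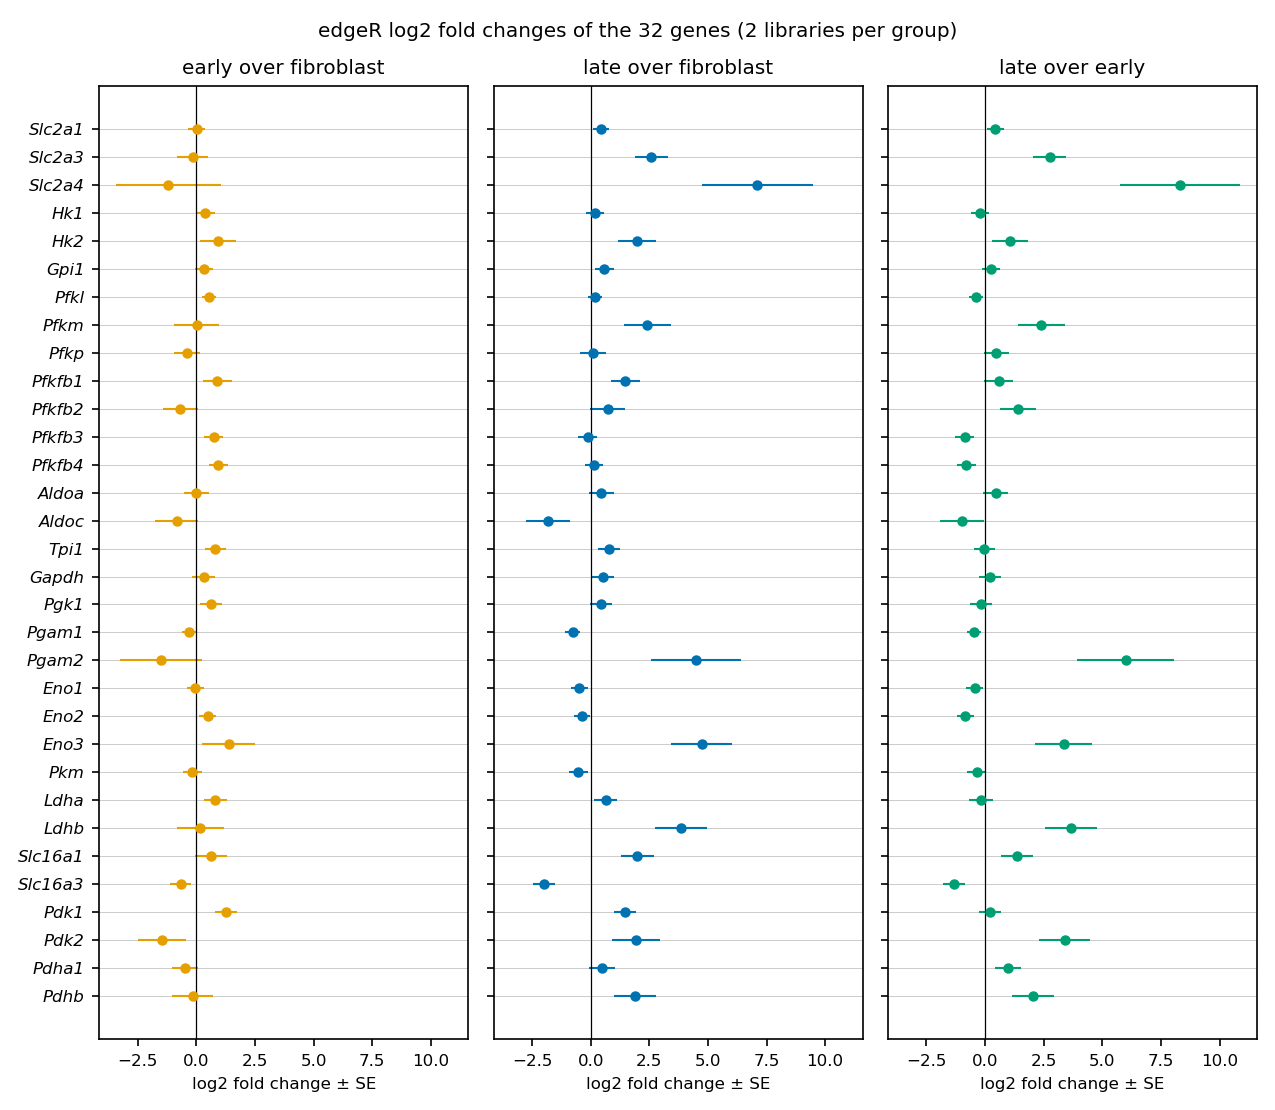
edgeR log2 fold changes of the 32 genes with their standard errors, in early over fibroblast, late over fibroblast and late over early cells, each group with 2 libraries. Slc2a4 lies farthest from 0 in late over fibroblast and in late over early cells; none of the points passed an adjusted p of 0.05.

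Among the glucose transporters, Slc2a1 (GLUT1), the ubiquitous carrier, varied less between libraries than Slc2a3 and Slc2a4. Slc2a1 was at 149 and 140 CPM in fibroblasts, 163 and 129 CPM in early cells and 259 and 135 CPM in late cells. Its groups overlapped in all 3 comparisons, and late replicate 1 alone was above the rest. Slc2a3 (GLUT3, ENSMUSG00000003153, chr6:122727809-122801640, - strand), the high-affinity carrier of neurons and early embryos, was at 2.89 and 2.12 CPM in fibroblasts, 2.76 and 1.70 CPM in early cells and 22.7 and 7.55 CPM in late cells. Both late libraries were above the other 4. The log2 fold change of Slc2a3 was 2.59 ± 0.69 (SE) in late over fibroblast cells, with an edgeR adjusted p of 0.0851, and 2.76 ± 0.70 in late over early cells, with an edgeR adjusted p of 0.377. Without late replicate 2 these values were 3.17 and 3.34, and without late replicate 1 they were 1.505 and 1.64.

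Slc2a4 (GLUT4, ENSMUSG00000018566, chr11:69942539-69948188, - strand), the insulin-responsive carrier of heart, skeletal muscle and fat, was near the floor in most libraries. It had 0.269 and 1.12 CPM in fibroblasts, 0.0445 and 0.568 CPM in early cells and 1.88 and 193 CPM in late cells. Late replicate 2 exceeded the next library by 103-fold. The log2 fold change was 7.11 ± 2.38 in late over fibroblast cells, with an edgeR adjusted p of 0.119, and was 1.42 without late replicate 2. Of the fat cell markers, Adipoq reached 9.04 CPM in late replicate 2 and did not exceed 0.0417 CPM in the others.

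Of the hexokinases, which trap glucose as glucose 6-phosphate, Hk1 varied less than Hk2, the regulated form of muscle, fat and proliferating cells. Hk1 was at 262 and 193 CPM in fibroblasts, 345 and 252 CPM in early cells and 178 and 338 CPM in late cells. Hk2 was at 32.1 and 60.2 CPM in fibroblasts, 126 and 49.0 CPM in early cells and 76.4 and 287 CPM in late cells. Both late libraries of Hk2 lay above both fibroblast libraries, with a log2 fold change of 1.98 ± 0.80 and an edgeR adjusted p of 0.159; without late replicate 2 the fold change was 0.72 on the log2 scale. Gpi1, glucose-6-phosphate isomerase, was at 455 and 421 CPM in fibroblasts, 720 and 383 CPM in early cells and 532 and 784 CPM in late cells, again with early replicate 1 and late replicate 2 the highest.

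Phosphofructokinase commits sugar to glycolysis, and its 3 subunits behaved differently. Pfkl, the liver-type subunit that many tissues express, was at 185 and 273 CPM in fibroblasts, 374 and 298 CPM in early cells and 226 and 291 CPM in late cells. Both early libraries of Pfkl were the highest of the 6, with a log2 fold change of 0.55 ± 0.30 in early over fibroblast cells and an edgeR adjusted p of 0.276. Pfkm, the muscle subunit, was at 84.7 and 73.9 CPM in fibroblasts, 75.7 and 84.5 CPM in early cells and 75.4 and 770.2 CPM in late cells. Late replicate 1 was thus at the level of the fibroblasts and late replicate 2 was 9.10-fold above the highest other library. Pfkp, the platelet-type subunit, was between 42.7 and 132 CPM, with early replicate 2 lowest and late replicate 2 highest.

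The 4 bifunctional enzymes of the Pfkfb family make and remove fructose 2,6-bisphosphate, the activator of phosphofructokinase. Pfkfb3, whose form favours synthesis of the activator, was at 29.4 and 50.2 CPM in fibroblasts, 46.0 and 87.1 CPM in early cells and 37.0 and 36.1 CPM in late cells. Pfkfb4 was at 6.68 and 6.74 CPM in fibroblasts, 10.2 and 15.5 CPM in early cells and 8.21 and 6.60 CPM in late cells. Both were lower in both late libraries than in both early ones, and Pfkfb4 was higher in early than in fibroblast libraries, with a log2 fold change of 0.94 ± 0.39 and an edgeR adjusted p of 0.182. Pfkfb2, the heart-type enzyme, was at 15.7 and 14.8 CPM in fibroblasts, 8.55 and 10.5 CPM in early cells and 7.96 and 42.5 CPM in late cells. Late replicate 2 was the highest for Pfkfb2 and late replicate 1 the lowest. Pfkfb1, known from liver and skeletal muscle, was low everywhere, at 1.41 and 1.12 CPM in fibroblasts, 3.30 and 1.42 CPM in early cells and 3.17 and 3.88 CPM in late cells, and both late libraries lay above both fibroblast libraries.

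Aldolase, triose-phosphate isomerase, glyceraldehyde-3-phosphate dehydrogenase and phosphoglycerate kinase carry the flux through the middle of the pathway. Aldoa was at 1072 and 1213 CPM in fibroblasts, 1424 and 859 CPM in early cells and 870 and 2262 CPM in late cells, and its groups overlapped in every comparison. Aldoc, the brain form, was between 0.674 and 5.44 CPM. Both late libraries of Aldoc, at 1.67 and 0.674 CPM, lay below the fibroblast values of 2.82 and 5.44 CPM. Tpi1 was at 385 and 404 CPM in fibroblasts, 946 and 443 CPM in early cells and 499 and 864 CPM in late cells. Gapdh, often used as a reference gene, was at 1703 and 1538 CPM in fibroblasts, 2697 and 1313 CPM in early cells and 1693 and 2933 CPM in late cells. Pgk1 was at 514 and 631 CPM in fibroblasts, 1236 and 525 CPM in early cells and 634 and 912 CPM in late cells. In Tpi1, Gapdh and Pgk1 the same 2 libraries, early replicate 1 and late replicate 2, stood highest. Only Tpi1 of these 3 was above both fibroblast libraries in both early libraries, with a log2 fold change of 0.82 ± 0.47 and an edgeR adjusted p of 0.296; without early replicate 1 the fold change was 0.17 on the log2 scale.

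At the phosphoglycerate mutase step the main form was Pgam1 in 5 libraries and Pgam2 in late replicate 2. Pgam1, the broadly expressed form, was at 215 and 290 CPM in fibroblasts, 249 and 159 CPM in early cells and 155 and 139 CPM in late cells. Both late libraries were the lowest of the 6, with a log2 fold change of -0.78 ± 0.31 in late over fibroblast cells and an edgeR adjusted p of 0.153; without late replicate 2 the fold change was -0.70 on the log2 scale. Pgam2 (ENSMUSG00000020475, chr11:5801640-5803733, - strand), the muscle form whose promoter is printed above, was at 8.13 and 5.29 CPM in fibroblasts, 2.18 and 2.56 CPM in early cells and 2.38 and 299.8 CPM in late cells. Its high level was found in late replicate 2 alone, 36.9-fold above the next library, and late replicate 1 was below both fibroblast libraries. The log2 fold change of Pgam2 in late over fibroblast cells, 4.49 ± 1.92 with an edgeR adjusted p of 0.174, became -1.50 without late replicate 2.

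At the enolase step Eno1 had the higher CPM in every library, and Eno3, the muscle form, came nearest to it in late replicate 2. Eno1, the broadly expressed form, was at 1334 and 1645 CPM in fibroblasts, 1846 and 1032 CPM in early cells and 1047 and 1077 CPM in late cells. Eno3 (ENSMUSG00000060600, chr11:70657202-70662513, + strand) was at 12.6 and 23.2 CPM in fibroblasts, 50.4 and 42.7 CPM in early cells and 62.7 and 884 CPM in late cells. Every early library of Eno3 lay above every fibroblast library, and every late library above every early one. The log2 fold change was 1.38 ± 1.12 in early over fibroblast cells, with an edgeR adjusted p of 0.451, and 4.73 ± 1.28 in late over fibroblast cells, with an edgeR adjusted p of 0.0866; the second was 1.80 without late replicate 2. Eno2, the neuronal form, was between 10.5 and 27.2 CPM, both early libraries being the highest and late replicate 2 the lowest. Pkm, pyruvate kinase, was at 3580 and 2662 CPM in fibroblasts, 3526 and 1991 CPM in early cells and 1865 and 2466 CPM in late cells; counts per gene do not separate its M1 and M2 splice forms. Both late libraries of Pkm and of Eno1 were below both fibroblast libraries, with log2 fold changes of -0.53 ± 0.41 and -0.49 ± 0.36 and edgeR adjusted p of 0.395 and 0.379.

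Eno1 has a near-identical copy, Eno1b, and Aldoa has Aldoart2, and reads of such copies can be split between them. Eno1b was at 61.8 and 43.6 CPM in fibroblasts, 2.90 and 1.99 CPM in early cells and 10.8 and 1.54 CPM in late cells. Aldoart2 was at 0.369 and 0.0294 CPM in fibroblasts, 11.4 and 11.8 CPM in early cells and 7.04 and 1.24 CPM in late cells. Both are small beside the levels of Eno1 and Aldoa. The handling of reads with several positions is not given, so the counts of copies do not bound the error. The values of Eno1 and Aldoa, and of Gapdh, Pgk1, Tpi1, Pgam1 and Ldha, which have processed pseudogenes, remain uncertain by an unknown amount.

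Lactate dehydrogenase interconverts pyruvate and lactate. Ldha (ENSMUSG00000063229, chr7:46841475-46855627, + strand), the subunit that favours lactate formation, was at 807 and 913 CPM in fibroblasts, 2176 and 853 CPM in early cells and 1113 and 1564 CPM in late cells. Early replicate 1 was the highest, early replicate 2 was at the level of fibroblasts, and both late libraries were above both fibroblast libraries. For Ldha the log2 fold change was 0.82 ± 0.50 in early over fibroblast cells, with an edgeR adjusted p of 0.325, and -0.01 without early replicate 1. In late over fibroblast cells it was 0.64 ± 0.50, with an edgeR adjusted p of 0.402. Ldhb (ENSMUSG00000030246, chr6:142490249-142507957, - strand), the subunit abundant in heart, was at 29.7 and 23.0 CPM in fibroblasts, 21.0 and 38.3 CPM in early cells and 67.8 and 684 CPM in late cells. Both late libraries of Ldhb were above the other 4, and the log2 fold change of 3.84 ± 1.11 in late over fibroblast cells, with an edgeR adjusted p of 0.0941, was 1.36 without late replicate 2.

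Of the 2 lactate transporters, Slc16a1 was higher and Slc16a3 lower in both late libraries than in both fibroblast libraries. Slc16a1 (MCT1), which carries lactate in and out of most cells, was at 46.7 and 32.7 CPM in fibroblasts, 90.7 and 31.8 CPM in early cells and 81.8 and 231 CPM in late cells. Both late libraries were above both fibroblast libraries, with a log2 fold change of 1.98 ± 0.70 and an edgeR adjusted p of 0.130; without late replicate 2 the fold change was 1.04 on the log2 scale. Slc16a3 (MCT4, ENSMUSG00000025161, chr11:120948480-120960868, + strand), the exporter of strongly glycolytic cells, was at 17.0 and 39.6 CPM in fibroblasts, 18.7 and 17.0 CPM in early cells and 7.79 and 6.52 CPM in late cells. Both late libraries were below the other 4. The log2 fold change of Slc16a3 was -1.98 ± 0.46 in late over fibroblast cells, with an edgeR adjusted p of 0.0749, and -1.87 without late replicate 2. Without fibroblast replicate 2, the library with the highest level, it was -1.26. In late over early cells it was -1.32 ± 0.46, with an edgeR adjusted p of 0.450. The macrophage and leukocyte list, cells that also express Slc16a3, was highest in the same library, fibroblast replicate 2: its 12 genes summed to 288 and 1194 CPM in fibroblasts, 115 and 51.0 CPM in early cells and 71.3 and 227 CPM in late cells, and its part in the level was not tested.

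Pyruvate enters the mitochondrial citrate cycle through pyruvate dehydrogenase, which the Pdk kinases switch off. Pdk1 (ENSMUSG00000006494, chr2:71873224-71903858, + strand), the kinase induced by hypoxia, was at 39.2 and 54.1 CPM in fibroblasts, 156 and 67.3 CPM in early cells and 102 and 153 CPM in late cells. All 4 libraries that received CRISPRa vectors were above both fibroblast libraries. For Pdk1 the log2 fold change was 1.26 ± 0.47 in early over fibroblast cells, with an edgeR adjusted p of 0.154, and 0.53 without early replicate 1. In late over fibroblast cells it was 1.45 ± 0.47, with an edgeR adjusted p of 0.114, and 1.12 without late replicate 2. Pdk2, a kinase abundant in heart and other oxidative tissues, was at 35.6 and 35.2 CPM in fibroblasts, 8.15 and 17.5 CPM in early cells and 25.7 and 243 CPM in late cells. Both early libraries of Pdk2 and late replicate 1 were below the fibroblasts, and late replicate 2 was 6.82-fold above the highest other library. Without that library its log2 fold change in late over fibroblast cells, 1.92 ± 1.02 with an edgeR adjusted p of 0.242, became -0.47.

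The 2 subunits of the dehydrogenase component itself followed Pdk2 in late replicate 2. Pdha1, the alpha subunit, was at 325 and 399 CPM in fibroblasts, 235 and 279 CPM in early cells and 241 and 763 CPM in late cells. Pdhb, the beta subunit, was at 84.9 and 84.6 CPM in fibroblasts, 79.1 and 72.8 CPM in early cells and 70.4 and 554 CPM in late cells. Apart from late replicate 2, every library that received CRISPRa vectors was below both fibroblast libraries for both subunits. The log2 fold changes in late over fibroblast cells were 0.47 ± 0.55 for Pdha1 and 1.88 ± 0.89 for Pdhb, with edgeR adjusted p of 0.571 and 0.207, and became -0.59 and -0.27 without late replicate 2.

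In late replicate 2, 10 of the 32 genes were more than 2-fold above every other library: Slc2a4, Hk2, Pfkm, Pfkfb2, Pgam2, Eno3, Ldhb, Slc16a1, Pdk2 and Pdhb. That is 31.2% of them, against 7.86% of all genes tested. The 2-fold rule was chosen after the values were seen, and the genes with earlier results of these data known. The contrast rests on 1 library and is a description, not a test. By the same rule late replicate 1 held Slc2a3 (1.49% of all genes), fibroblast replicate 2 held Slc16a3 (1.82%), and fibroblast replicate 1, early replicate 1 and early replicate 2 held none of the 32 (1.52%, 0.755% and 2.19%). The 5 muscle and heart forms Slc2a4, Pfkm, Pgam2, Eno3 and Ldhb summed to 135 and 126 CPM in fibroblasts, 149 and 169 CPM in early cells and 210.2 and 2831 CPM in late cells. Their broadly expressed counterparts Slc2a1, Pfkl, Pgam1, Eno1 and Ldha summed to 2690.0 and 3262 CPM in fibroblasts, 4809 and 2471 CPM in early cells and 2801 and 3206 CPM in late cells. The muscle and heart forms were thus far above the other libraries in late replicate 2. The CPM sum of the broadly expressed forms in that library lay between the 2 fibroblast libraries, but its genes went opposite ways. Slc2a1, Pgam1 and Eno1 were below both fibroblast libraries there, and Pfkl and Ldha were above both. Per kilobase of exon their sum was 825 CPM in late replicate 2, above the fibroblast values of 670 and 809 CPM.

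**Figure D3:**
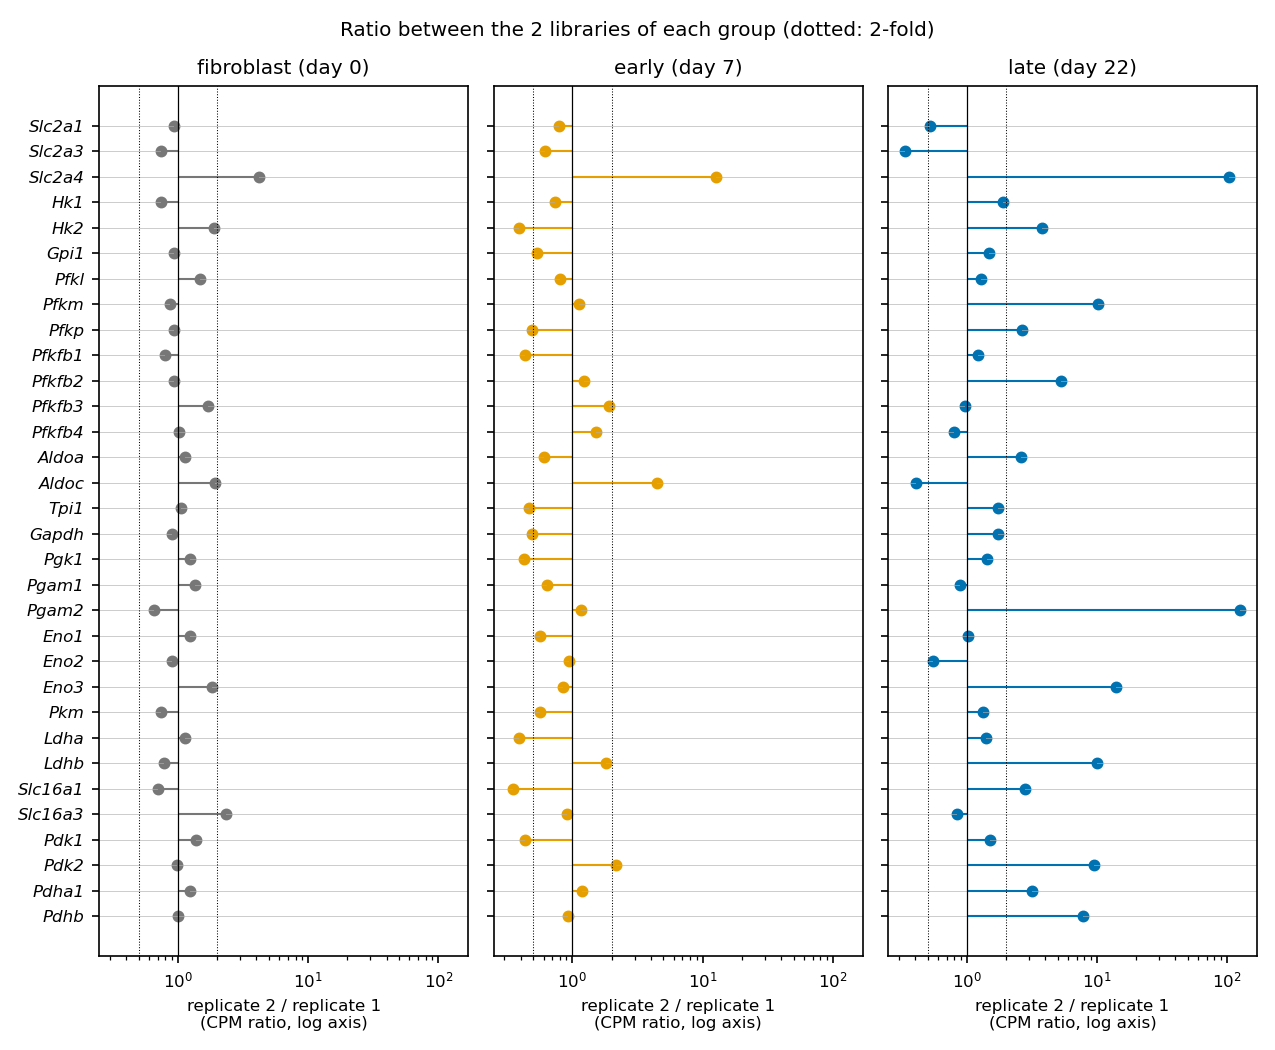
Ratio of replicate 2 to replicate 1 within each group for the 32 genes (CPM ratio, log axis; dotted lines at 2-fold). Ratios stay within 2-fold in fibroblasts except for Slc2a4 and Slc16a3; in early cells Ldha, Pgk1, Gapdh, Tpi1, Pfkp, Slc16a1, Pdk1, Hk2 and Pfkfb1 are more than 2-fold higher in replicate 1, and in late cells the muscle and heart forms are higher in replicate 2.

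Isoform shares put the genes of a step on a per-length scale: each share is a gene's CPM per kilobase of exon as a percentage of the sum over the genes of its step, and 11 steps have more than 1 gene. In 5 libraries Slc2a1 made up between 95.3% and 99.2% of the glucose transporter RNA. In late replicate 2 it made up 40.5% and Slc2a4 58.4%. The Pfkm share of phosphofructokinase RNA was 42.5% and 31.97% in fibroblasts, 26.6% and 34.6% in early cells and 37.5% and 81.2% in late cells. Pgam2 made up 8.20% and 4.14% of phosphoglycerate mutase RNA in fibroblasts, 2.02% and 3.65% in early cells and 3.48% and 83.6% in late cells. Late replicate 2 thus had the muscle form as its main one in these 3 steps, while the Pfkm and Pgam2 shares of late replicate 1 lay within the range of the fibroblast and early libraries. The Slc2a3 share was 0.925% and 0.720% in fibroblasts, 0.814% and 0.632% in early cells and 4.04% and 1.10% in late cells, highest in late replicate 1.

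In enolase and lactate dehydrogenase late replicate 1 also differed from the fibroblasts. The Eno3 share was 2.79% and 4.12% in fibroblasts, 7.66% and 11.1% in early cells and 15.4% and 71.5% in late cells, with no overlap between successive groups. The share in late replicate 2 depends on the length used: it was 51.4% with the longest transcript and 44.8% without division by length, below that of Eno1. The Ldhb share was 7.20% and 5.04% in fibroblasts, 1.996% and 8.65% in early cells and 11.4% and 48.0% in late cells, both late libraries being the highest. The Hk2 share was 14.9% and 30.8% in fibroblasts, 34.3% and 21.8% in early cells and 38.1% and 54.9% in late cells, again with both late libraries above the other 4. In CPM, without division by length, Hk1 stayed above Hk2 in late replicate 2, at 338 against 287 CPM. With 2 libraries against 2, an exact two-sided permutation test cannot give a p below 0.333, so these orders are descriptions.

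For the lactate transporters the Slc16a1 share was 76.8% and 49.9% in fibroblasts, 85.3% and 69.3% in early cells and 92.7% and 97.7% in late cells, both late libraries being the highest. The Pdk1 share of the 2 kinases was 30.9% and 38.4% in fibroblasts, 88.6% and 61.0% in early cells and 61.7% and 20.4% in late cells. On this scale Pdk1 was the larger part in both early libraries and in late replicate 1, and Pdk2 in both fibroblast libraries and in late replicate 2. The order in fibroblasts depends on the division by length. In CPM Pdk1 was above Pdk2 there, at 39.2 and 54.1 CPM against 35.6 and 35.2 CPM. In the Pfkfb family Pfkfb3 had the largest share in 5 libraries, between 50.01% and 69.9%, and Pfkfb2 in late replicate 2, with 45.2%. Aldoa held at least 99.6% of aldolase RNA in all 6 libraries. Pdhb was 41.3% of the 2 dehydrogenase subunits in late replicate 2, against 17.0% to 24.6% in the others. Pdha1 and Pdhb are the alpha and beta subunits of the same component and not alternative forms, so this share is no isoform share.

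**Figure D4:**
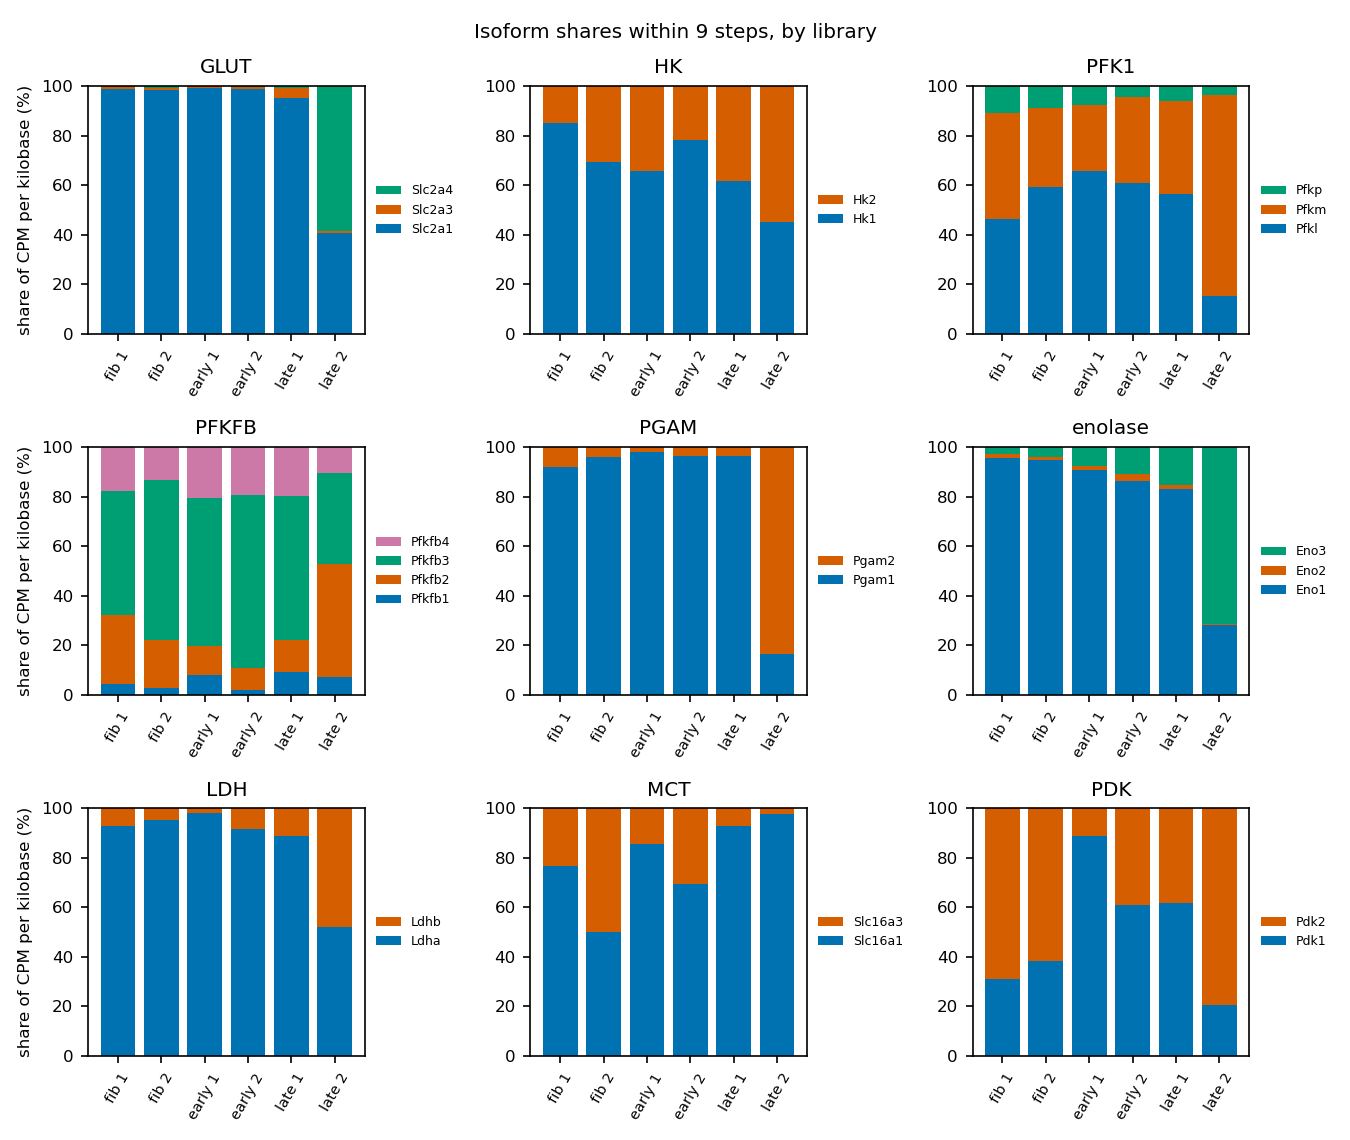
Share of CPM per kilobase of exon (%, 0 to 100) held by each gene of 9 steps in each of the 6 libraries, as stacked bars; fib stands for fibroblast. Slc2a4, Pfkm and Pgam2 are the main form only in late replicate 2, with 58.4%, 81.2% and 83.6%; Eno3 has 71.5% there on this scale, and the Slc16a1 share is highest in both late libraries.

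The neighbouring pathways were examined by lists, and none of their genes was called by edgeR in any comparison. Of all genes tested, 50.2% were above the fibroblast mean in early cells and 54.1% in late cells. Of 9 further pyruvate dehydrogenase genes, 8 were tested, and in late over fibroblast cells 6 were above and 2 below the fibroblast mean; 6 of the 9 were highest in late replicate 2. Of 14 genes of glycogen metabolism, all tested, 8 were above and 6 below in the same comparison, and 8 were highest in late replicate 2. The share of all genes highest in that library was not counted. Of 13 tested carriers of glucose, lactate or pyruvate among 18, 4 were above and 9 below in late over fibroblast cells, as they were in early over fibroblast cells. Below both fibroblast libraries lay 8 (61.5%) in early and 7 (53.8%) in late cells, against 34.4% and 32.9% of all genes. Above both lay 1 in early and 2 in late cells. Of 22 tested regulators of glycolysis genes among 24, 19 were above and 3 below in late over fibroblast cells, with a median log2 fold change of 0.96. Both late libraries lay above both fibroblast libraries for 12 of them (54.5%, against 35.7% of all genes) and below for 0. Of 18 hypoxia targets outside glycolysis, 10 were above and 8 below in late over fibroblast cells, with a median of 0.14, and 9 and 9 in early over fibroblast cells.

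The pentose phosphate list had 7 of 8 genes tested, 3 above and 4 below in early over fibroblast cells and 2 above and 5 below in late over fibroblast cells. The list of gluconeogenesis and glycolytic brakes had 6 of 10 tested, 1 above and 5 below in early over fibroblast cells and 2 above and 4 below in late over fibroblast cells. Of these 6, 4 (66.7%) lay below both fibroblast libraries in early and 3 (50%) in late cells, against 34.4% and 32.9% of all genes, and 0 above. Other isoenzymes of glycolysis had 6 of 12 tested, with 2 above and 4 below in early over fibroblast cells and 4 above and 2 below in late over fibroblast cells.

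A few genes of these lists are named for their values, and were chosen after the values were seen. Pygm, muscle glycogen phosphorylase, was at 732 CPM in late replicate 2 and no higher than 1.91 CPM in any other library. The mitochondrial pyruvate carrier genes Mpc1 and Mpc2 were at 134 and 173 CPM in late replicate 2, against at most 34.9 and 34.5 CPM elsewhere. Ppargc1a, a coactivator of mitochondrial genes, reached 68.7 CPM in late replicate 2 and at most 2.23 CPM elsewhere. These follow the muscle isoforms in being high in that library alone.

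Egln3, a HIF target and HIF prolyl hydroxylase, was at 1.71 and 2.35 CPM in fibroblasts, 171 and 17.3 CPM in early cells and 97.3 and 183 CPM in late cells. Its log2 fold change was 5.53 ± 1.21 in early over fibroblast cells and 6.10 ± 1.25 in late over fibroblast cells, with edgeR adjusted p of 0.0726 and 0.0654. Vegfa, also a HIF target, was at 52.5 and 68.2 CPM in fibroblasts, 236 and 162 CPM in early cells and 159 and 485 CPM in late cells. Both genes were higher in all 4 libraries that received CRISPRa vectors, as Pdk1 was. Adm, another HIF target, was lower in all 4. It was at 197 and 359.6 CPM in fibroblasts, 5.75 and 19.4 CPM in early cells and 9.59 and 8.93 CPM in late cells. Among the 18 hypoxia targets outside glycolysis, 5 (27.8%) lay above both fibroblast libraries in early cells and 6 (33.3%) below. The shares of all genes were 32.3% and 34.4%. In late cells 5 (27.8%) lay above and 4 (22.2%) below, against 35.7% and 32.9% of all genes. Hif1a itself was at 282 and 338 CPM in fibroblasts, 931 and 495 CPM in early cells and 463 and 519.5 CPM in late cells, with early replicate 1 the highest. That library was also highest for 8 of the 32 genes (Hk1, Pfkl, Tpi1, Pgk1, Eno1, Eno2, Ldha and Pdk1) and for all 10 markers of dividing cells. Pdk1 was nearly as high in late replicate 2, at 153 against 156 CPM. A link between Hif1a and these levels was not tested. Lin28a, an RNA-binding protein of embryonic cells known to raise glycolysis, was at or below 0.0946 CPM in fibroblasts and early cells and at 12.5 and 3.59 CPM in late cells.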

How the data were processed

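The table that the authors deposited holds raw counts of reads for each Ensembl gene in the 6 libraries, without normalization. The submitters' processing notes name Trimmomatic 0.36, STAR 2.5.2b, featureCounts, Subread 1.5.2 and GRCm38; RNA was purified with a column kit and selected by poly(A) tail, per the labels' protocols. No source used here gives the annotation release, the strand setting or the handling of reads with several positions.

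Fibroblast columns carry their sample titles; early and late columns were assigned by name (cTTF as early, ciCPC as late), and if that reading were wrong their values would change places. Symbols, positions and exon lengths came from GENCODE M21 (49056 of 49315 identifiers had a symbol), and promoter windows from RefSeq on GRCm38.p6. Genes were filtered with filterByExpr, scaled by TMM and tested with edgeR 4.0.16 (R 4.3.3) by a robust quasi-likelihood fit over all 6 libraries, 3 residual degrees of freedom and a biological coefficient of variation of 48.6%, with Benjamini-Hochberg adjustment over the 16688 genes tested and a threshold of 0.05. The test was also run on simulated counts whose spread was capped below the common spread of these libraries, so that run does not show how the test performs here. DESeq2 1.42.0, RLE factors, library totals, no filter, no mitochondrial genes, a replicate block and leaving out each library were alternatives. The floor of 3 counts covers counting error only.

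All 32 genes are described whatever their test. Of the other lists only called genes were to be named: the neighbouring pathways had none and the marker lists 1, Slc1a3. The genes and lists were chosen with earlier results of these data known, and the rule of 2-fold above every other library and the 2 sets of isoforms were chosen after seeing the values.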

Additional observations from a re-analysis of the deposited data

How the results depend on the processing

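None of the 32 genes was called in early over fibroblast cells under any alternative. In late over fibroblast cells DESeq2 called 9, or 28.1% of them and of all genes (Slc2a3, Slc2a4, Pfkm, Pgam2, Eno3, Ldhb, Slc16a1 and Pdk1 higher, Slc16a3 lower), a fit with no expression filter called 2 (Slc2a3 and Slc16a3; 6.25%, against 7.81% of all genes), and leaving out 1 library gave 0 to 6. The 6, found without late replicate 1, were Slc2a4, Pfkm, Pgam2, Eno3, Ldhb and Pdhb (18.8%, against 5.67% of all genes), with late replicate 2 as the lone library of its group, assumed to vary like the others. In late over early cells DESeq2 called 6 (Slc2a3, Slc2a4, Pgam2, Eno3, Ldhb and Pdk2; 18.8%, against 5.57%) and leaving out 1 library gave 0 to 7, the 7 again without late replicate 1 (21.9%, against 3.23%).

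Over all genes, the count in early over fibroblast cells was 514 with library totals alone, 4201 with DESeq2, 2337 with no filter and 0 to 823 without 1 library. In late over fibroblast cells it was 4683 with DESeq2, 2495 with no filter and 0 to 1058 without 1 library. In late over early cells it was 930 with DESeq2, 276 with no filter and 0 to 602 without 1 library. Leaving out either fibroblast library gave 0 in both comparisons with fibroblasts, and the cause was not tested. With the replicate number as a block, 26 genes were called in early over fibroblast cells, 9 in late over fibroblast cells and 0 in late over early cells, and 0 of the 32. Libraries that share a number had deviations correlated by 0.121, 0.238 and 0.0859 over 2 pairs, so the numbers were not taken as a pairing.

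Library totals alone moved the median log2 fold change of all genes to 0.17 in early over fibroblast cells and 0.27 in late over fibroblast cells. Under that scaling Slc2a3, Aldoa, Eno1 and Pdhb changed sign in early over fibroblast cells and Pfkfb3 in late over fibroblast cells. Without late replicate 2, Hk1, Pfkl, Pfkm, Pfkp, Pfkfb2, Aldoa, Pgam2, Pdk2, Pdha1 and Pdhb changed sign in late over fibroblast cells. With the longest transcript in place of exon length, 42 of 162 shares moved beyond the spread between replicates. Without division by length, 51 of 162 did. The 162 include those of Pdha1 and Pdhb. The Eno3 share of late replicate 2, 71.5%, became 51.4% and 44.8%, and its Ldhb share, 48.0%, became 37.8% and 30.4%. Groups have 2 libraries each, and the origin of the replicates is not given.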
